A study of Mus musculus with 6 samples.

Results

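The 10 genes described here encode ligands and receptors of the vascular endothelial growth factor (VEGF) and angiopoietin families: Vegfa, Vegfb, Vegfc, Flt1, Kdr, Flt4, Nrp1, Angpt1, Angpt2 and Tek. They were taken by gene symbol from a table of 34714 rows of read counts, all 10 were found, and all 10 were among the 18927 genes with enough counts to be tested. Gene expression was measured by RNA sequencing of whole kidney from 3 wild-type mice (C57BL/6J) and 3 mice that lack the microRNA gene Mir92b in all cells (miR-92b-/-, on a C57BL/6JGpt background). The named substrain differs with the genotype, so differences between the groups cannot be told apart from differences of substrain. Per the labels, the mice were male and 8 weeks old, and all had unilateral ureteral obstruction (UUO), in which the ureter of the left kidney is tied off, with kidneys taken 10 days later. The treatment text calls ligated kidneys controls without fibrosis, while the treatment label and the column names give UUO for all 6 libraries. No sham-operated kidney was analysed here, so obstruction is shared by both groups and its own effect cannot be read from these libraries. The labels do not tie each replicate to its own animal, and the p-values then measure only the spread between these libraries, which may be technical.

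VEGF-A, the product of Vegfa, acts on endothelial cells through the receptor Kdr, while Flt1 binds the same ligand tightly, signals weakly and can act as a decoy. VEGF-C signals through Flt4, best known in lymphatic vessels, and Nrp1 is a co-receptor. Angiopoietin-1 activates the receptor Tek (also called Tie2) and steadies vessels, and angiopoietin-2, made by endothelial cells themselves, often opposes it. In kidney, podocytes and tubule cells make VEGF-A and the neighbouring glomerular and peritubular capillaries carry its receptors.

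Library totals ran from 38738204 to 51932509 counts, and the lowest count of any of the 10 genes in any library was 310. The kidney markers Umod, of the thick ascending limb, and Lrp2, of the proximal tubule, were found in every library, at 615 to 3872 and 195 to 569.8 CPM (counts scaled to a common library size by TMM). The table holds 0 rows named Mir92b, which leaves the knockout labels without a check on the deleted gene. Both Umod and Lrp2 were at their lowest in knockout replicate 3.

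The deleted microRNA is shown with a relative that has the same seed, because the seed (bases 2 to 8, in capitals) is the part that pairs with a target. Below them stands the one stretch of a 3' UTR among the 10 genes that holds a match, in Angpt2, with the match in capitals. The microRNA sequences are from RefSeq (GRCm38.p6) and the site is from GENCODE M21 transcripts (GRCm38).
miR-92b-3p: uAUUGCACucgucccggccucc
miR-92a-3p: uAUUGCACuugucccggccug
Angpt2 site: acagagcactaGTGCAATttctcctgtag

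In that table, 6 mature mouse microRNAs share this seed, among them miR-25-3p, miR-32-5p and miR-363-3p. The longest annotated 3' UTR of each of the 10 genes was searched on the transcript strand for GTGCAATA (the seed match followed by A), GTGCAAT (the seed match alone) and TGCAATA (its last bases followed by A), and each match was counted once, under the longest form. Angpt2 held 1 site, GTGCAAT, at bases 1273 to 1279 of a 3' UTR of 1785 nt. It lies at chr8:18690769-18690775 on the minus strand, and the 29 bases printed span chr8:18690758-18690786. The other 9 genes held 0 sites. Of 21010 mouse genes with such a 3' UTR, 12.7% held at least 1 of the 3 forms and 4.57% held GTGCAAT without a following A. A match of letters is a description and not evidence that the microRNA acts on Angpt2.

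Levels were compared between genes after division by the length of the longest annotated transcript. On this scale Nrp1 and Vegfa were highest, with means over the 6 libraries of 69.4 and 65.8 CPM per kilobase, and each was above the other in 3 libraries. Vegfb followed at 26.2 CPM per kilobase, below Vegfa and above Tek in all 6 libraries. The 3 endothelial receptors Tek, Kdr and Flt1 stood together at 9.40, 8.33 and 7.71, with ranges that overlapped. Angpt2 was at 5.23 and lay below Flt1 in all 6 libraries, although their ranges across libraries overlapped. Flt4, Vegfc and Angpt1 closed the order at 3.21, 3.18 and 2.98, and these neighbours did not separate beyond their spread. Transcript forms could not be told apart in counts per gene, so soluble Flt1 and the splice forms of Vegfa are summed in these values.

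Among the ligands, Vegfa and Vegfb were the 2 of the 10 genes whose 3 knockout values all lay under their 3 wild-type values. Vegfa measured 336, 237 and 247 CPM in wild-type replicates 1, 2 and 3 and 221, 170.0 and 152 CPM in the knockout. Wild-type replicate 1 was the highest, and the gap between the groups was narrow, from 237 down to 221 CPM. The means were 273 ± 54.3 and 181 ± 35.8 CPM (SD, n = 3 each), and the knockout level was 0.663 times the wild-type level. The log2 fold change (knockout over wild type) was -0.59 ± 0.21 (SE), with a 95% interval of -1.08 to -0.11. The unadjusted p of 0.0222 became 0.627 after Benjamini-Hochberg adjustment over all genes tested (edgeR quasi-likelihood test), so Vegfa did not pass the threshold of 0.05.

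Vegfb, whose product binds Flt1 and Nrp1 and is tied to heart muscle and fatty acid handling, gave 44.2, 32.3 and 37.9 CPM in the wild type and 28.1, 27.3 and 31.4 CPM in the knockout. Its highest knockout value lay just under its lowest wild-type value. The log2 fold change was -0.40 ± 0.15 (SE, n = 3 per group; edgeR unadjusted p = 0.0316, adjusted p = 0.627). Vegfb has a short transcript of 1281 nt, and with the trend of fold change with transcript length removed its log2 fold change was -0.23, with Vegfa at -0.63.

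Vegfc, the ligand of Flt4, showed no separation, at 8.12, 7.16 and 8.34 CPM in the wild type and 7.07, 7.21 and 8.86 CPM in the knockout. Its log2 fold change of -0.03 ± 0.20 (SE) had a 95% interval of -0.49 to 0.44, and its sign turned under several other settings.

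Of the 10 genes, 0 passed an adjusted p of 0.05, as did 0% of all genes tested (edgeR), and DESeq2 and limma-voom, which called 0.328% and 0.0106% of all genes, also called 0 of the 10. At an unadjusted p under 0.05 there were 2, Vegfa and Vegfb, both lower, where 7.9% of all genes tested met that level, 4.38% higher and 3.52% lower. Groups did not overlap for the same 2 genes, both lower in the knockout, beside 7.2% of all genes in that direction, and for 0 genes higher in the knockout, beside 8.95%. The median log2 fold change of the 10 was 0.26, with 7 above 0, against a median of -0.02 and 47.7% above 0 over all genes. That median depended on single libraries: it was 0.080 without knockout replicate 3, -0.039 when both groups lost replicate 3, and 0.43 without knockout replicate 1.

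**Figure D1:**
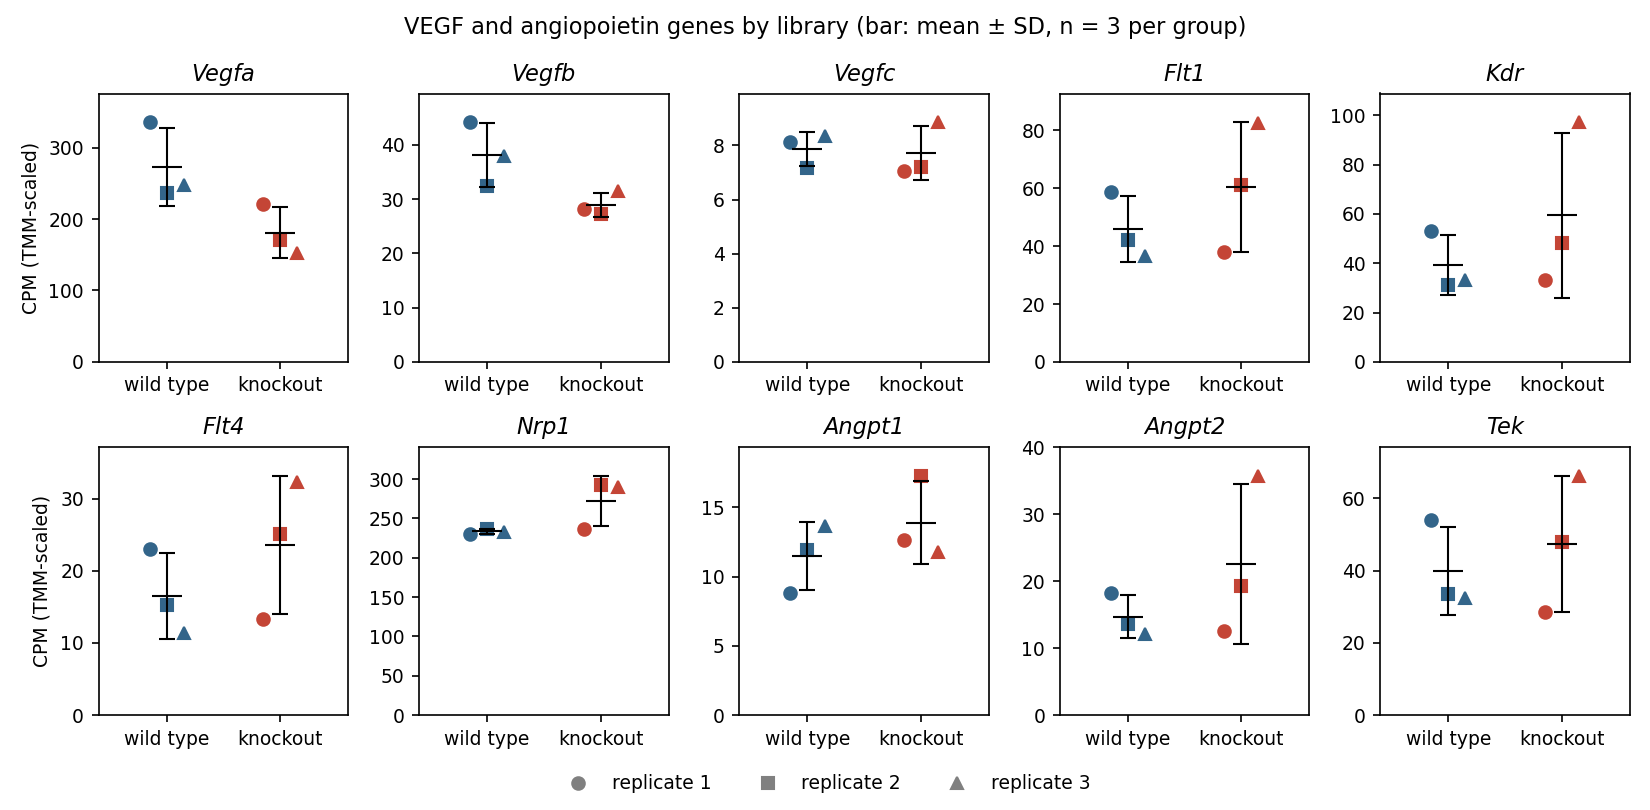
CPM (TMM-scaled, y axis from 0) of the 10 genes in each library, by genotype, with marker shape for the replicate number and bars for the mean ± SD of 3 libraries. Vegfa and Vegfb lie lower in all 3 knockout libraries, while Flt1, Kdr, Flt4, Angpt2 and Tek overlap and reach their highest value in knockout replicate 3.

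The receptors of the VEGF family had higher means in the knockout but overlapping groups. Kdr, the main signalling receptor for VEGF-A on blood vessels, measured 53.1, 31.2 and 33.3 CPM in wild-type replicates 1 to 3 and 33.1, 48.1 and 97.2 CPM in knockout replicates 1 to 3. Knockout replicate 1 lay among the low wild-type values and knockout replicate 3 lay far above all others. The log2 fold change was 0.60 ± 0.39 (SE; edgeR adjusted p = 0.661), with a 95% interval of -0.31 to 1.51. Leaving out knockout replicate 3 brought it to 0.051, and leaving out both replicates numbered 3 brought it to -0.052, whereas it was 0.89 without knockout replicate 1. The replicates numbered 3 are not a known pair, and no other replicate number was left out of both groups.

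Flt1 followed the same libraries, at 58.7, 42.2 and 36.7 CPM in the wild type and 37.9, 60.9 and 82.5 CPM in the knockout. Wild-type replicate 1 was close to knockout replicate 2, so the groups were interleaved. Its log2 fold change of 0.40 ± 0.29 (SE; edgeR adjusted p = 0.680) was 0.11 without knockout replicate 3 and -0.027 without replicate 3 of both groups, and 0.65 without knockout replicate 1. Flt4, the receptor for VEGF-C, gave 23.1, 15.2 and 11.3 CPM in the wild type and 13.3, 25.1 and 32.3 CPM in the knockout. The log2 fold change was 0.51 ± 0.36 (SE; edgeR adjusted p = 0.674). Without replicate 3 of both groups it stood at 0.011, without knockout replicate 3 at 0.22, without wild-type replicate 3 at 0.31, without knockout replicate 1 at 0.80 and without wild-type replicate 1 at 0.83.

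Nrp1, the co-receptor, was the steadiest of the receptors, at 230.3, 237 and 233 CPM in the wild type and 236, 293 and 289 CPM in the knockout. Knockout replicate 1 lay inside the narrow wild-type range, and knockout replicates 2 and 3 were above it. The log2 fold change of 0.22 ± 0.15 (SE; edgeR adjusted p = 0.665) stayed between 0.17 and 0.32 under all alternatives run, none of which called it.

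Of the angiopoietins, Angpt2 had the larger fitted difference and the wider spread. It measured 18.3, 13.6 and 12.2 CPM in the wild type and 12.6, 19.3 and 35.8 CPM in the knockout, and knockout replicate 3 was far above the other 5 libraries. A link between its seed match and its level was not tested. The log2 fold change of Angpt2 was 0.62 ± 0.37 (SE; edgeR adjusted p = 0.649), with a 95% interval of -0.23 to 1.46. The value was 0.12 without knockout replicate 3, 0.0016 without replicate 3 of both groups and 0.91 without knockout replicate 1.

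Angpt1, made largely by perivascular and mesenchymal cells, did not share this pattern. It was at 8.80, 12.0 and 13.7 CPM in the wild type and 12.6, 17.3 and 11.8 CPM in the knockout, lowest in wild-type replicate 1, where Flt1, Kdr, Flt4 and Tek were high. Its log2 fold change was 0.28 ± 0.24 (SE; edgeR adjusted p = 0.718), 0.12 without wild-type replicate 1 and 0.53 without replicate 3 of both groups. Tek, the receptor of both, measured 54.1, 33.5 and 32.5 CPM in the wild type and 28.4, 47.9 and 66.1 CPM in the knockout. Knockout libraries were both the lowest and the highest for Tek, and its log2 fold change of 0.25 ± 0.32 (SE; edgeR adjusted p = 0.811) turned to -0.067 without knockout replicate 3.

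The ratio of Angpt2 to Angpt1 is often read as the balance between vessel loosening and vessel steadying. It was 2.08, 1.14 and 0.891 in the wild type and 0.996, 1.11 and 3.04 in the knockout, as a ratio of CPM not corrected for length. The groups overlapped, and the exact two-sided permutation test of the log2 ratio gave p = 0.7 (adjusted p = 0.7 over the 5 ratios tested), where 0.1 is the smallest p that 3 against 3 libraries allow. The sign of the difference was opposite without knockout replicate 3.

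**Figure D2:**
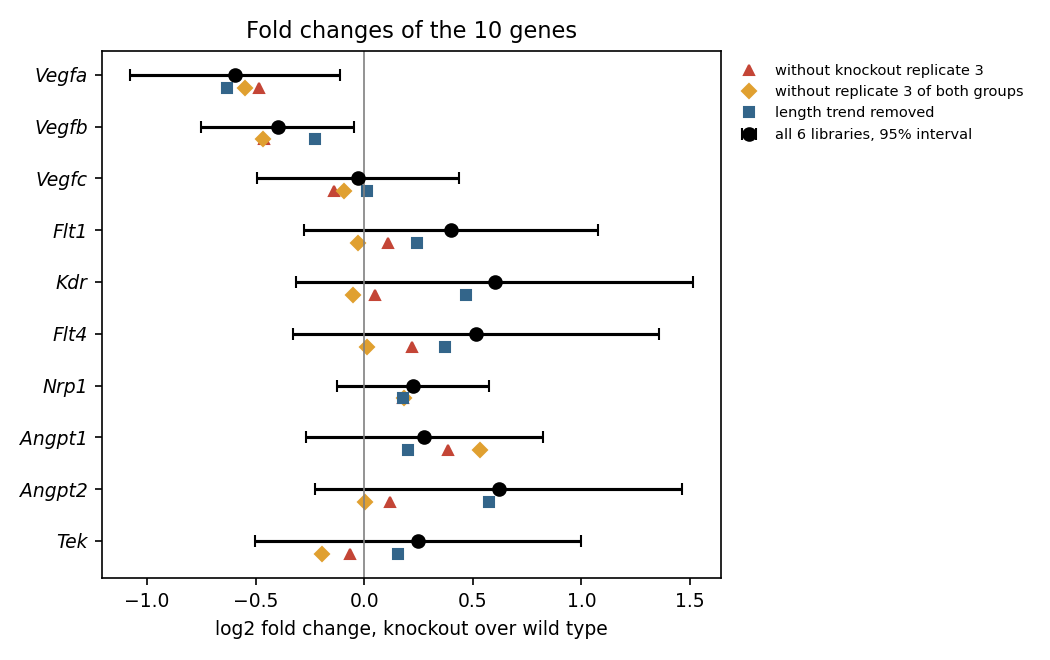
Log2 fold change, knockout over wild type (x axis), of the 10 genes with all 6 libraries (black, 95% interval of the edgeR fit) and under 3 alternatives (coloured marks). The intervals of Vegfa and Vegfb lie below 0 before adjustment, and without replicate 3 of both groups Flt1, Kdr, Flt4 and Angpt2 lie close to 0. No other replicate number was left out of both groups.

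The receptors were set beside a list of 12 blood endothelial markers, since in whole kidney fewer endothelial cells and less RNA per cell cannot be told apart. All 12 markers were tested and none was at 0 in any library. Their summed level was 1080, 600.3 and 599 CPM in the wild type and 528, 845 and 1228 CPM in the knockout, so wild-type replicate 1 and knockout replicates 2 and 3 were high. The same 3 libraries were the 3 highest for each of Flt1, Kdr, Flt4, Angpt2 and Tek and for 8 of the 12 markers. Of all genes tested, 6.88% had these 3 libraries on top, and this pattern was picked after the values were seen. Between knockout replicates 3 and 1 the 5 genes differed by 2.18 to 2.93 fold and the marker sum by 2.33 fold. The part of endothelial RNA content in the receptor values was not tested beyond the ratios that follow.

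Tek kept close to the marker sum, at 5.01, 5.58 and 5.43% of it in the wild type and 5.39, 5.67 and 5.38% in the knockout. The values overlapped, with an exact two-sided permutation p of 0.6 (adjusted p = 0.6 over 3 receptors). Flt1 made up 5.44, 7.03 and 6.12% in the wild type and 7.18, 7.21 and 6.72% in the knockout (exact permutation p = 0.2, adjusted p = 0.3).

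Among these 3 receptors, the share of the marker sum did not overlap between groups for Kdr. It was 4.92, 5.20 and 5.56% in the wild type and 6.28, 5.69 and 7.91% in the knockout, a log2 difference of 0.33 that was 0.20 without knockout replicate 3. The exact permutation p was 0.1, the smallest possible in this design, with an adjusted p of 0.3 over the 3 receptors. The share depends on the markers summed: of the 12, 7 had a log2 fold change above 0 and 5 below. Pecam1 and Cdh5, at 0.59 and 0.57, were close to Kdr at 0.60, while Sox17 was at -0.60. A change of Kdr per endothelial cell was not tested. Measured against the mean log2 CPM of the markers instead, Kdr, Flt1 and Tek differed by 0.44, 0.30 and 0.15. The exact permutation p, not adjusted, was at its smallest possible value of 0.1 for Kdr and Flt1 and 0.2 for Tek. Flt1 per Kdr was 1.11, 1.35 and 1.10 in the wild type and 1.14, 1.27 and 0.849 in the knockout (exact permutation p = 0.6, adjusted p = 0.7 over the 5 ratios), lowest where Kdr was highest.

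**Figure D3:**
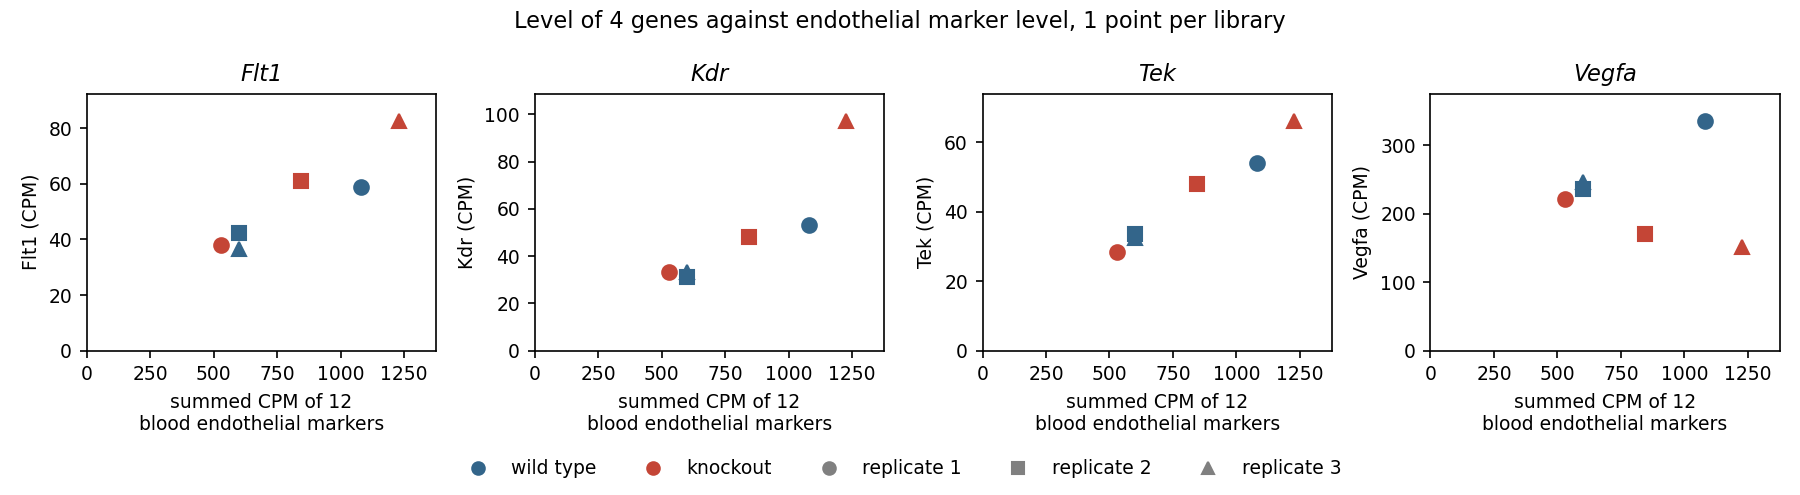
Level of Flt1, Kdr, Tek and Vegfa (CPM, y axes from 0) against the summed CPM of 12 blood endothelial markers (x axis), with 1 point per library, colour for genotype and shape for replicate number. The receptors are high where the marker sum is high, and Vegfa is highest in wild-type replicate 1 and lowest in knockout replicate 3, although both have high marker sums.

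Vegfa did not follow the endothelial markers. Its knockout values were lowest, at 152 CPM, where the marker sum was highest, at 1228 CPM, and its wild-type values were highest, at 336 CPM, in the wild-type library with the high marker sum. The 6 podocyte markers had 3 log2 fold changes above 0 and 3 below, with a median of 0.03. Their summed level ranged from 431 to 523 CPM in the wild type and from 447 to 564 CPM in the knockout, and none was at 0. Nphs1, the slit diaphragm gene nephrin, was the 1 podocyte marker with lower values in all knockout libraries, and it is named because of its values (log2 fold change -0.68). The 5 proximal tubule markers summed to 1090.1 to 2125 CPM and 626 to 1822 CPM, and the 5 of the thick ascending limb and distal tubule to 1694 to 4807 CPM and 870.3 to 4781 CPM. Pvalb, under 1 CPM in every library, was at 0 in knockout replicates 2 and 3. Log2 fold changes were below 0 for 4 of the 5 proximal tubule markers (median -0.23). They were below 0 for all 5 of the thick ascending limb and distal tubule (median -0.30). All 5 collecting duct markers were also below 0, with a median of -0.54, and summed to 275 to 369.6 CPM and 137 to 296 CPM. Of the 5, 2 had lower values in all knockout libraries and are named because of their values. They were Aqp2 at -1.26 and Fxyd4 at -0.76 (edgeR adjusted p = 0.627 for each, DESeq2 adjusted p = 0.438 and 0.0139). The sum of 5 macrophage markers did not overlap, at 488 to 503 CPM in the wild type and 546 to 637 CPM in the knockout. The part of these cell types in the Vegfa values was not tested.

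The marker sums of stromal cells were highest in the same 3 libraries as the endothelial sum, wild-type replicate 1 and knockout replicates 2 and 3. The 5 fibroblast markers summed to 512 to 1092 CPM in the wild type and 764 to 2308 CPM in the knockout, and the 5 pericyte and mesangium markers to 354 to 463 and 367 to 625 CPM. The 4 smooth muscle and myofibroblast markers summed to 678, 290.4 and 218 CPM in the wild type and 192, 449.8 and 736 CPM in the knockout. The 5 lymphatic markers were low, with sums of 13.9 to 18.6 and 14.7 to 16.8 CPM, while single members went different ways: in knockout replicate 3 Prox1 was at its lowest, 2.64 CPM, and Lyve1 at its highest, 5.38 CPM. No marker of the fibroblast, pericyte, smooth muscle or lymphatic lists was at 0, and the part of stromal RNA in the receptor values was not tested.

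The promoters of Kdr and Flt1 are shown because these 2 receptors were high and low in the same libraries. Each is the RefSeq window (GRCm38.p6) from 250 bases before to 50 bases after the start, written in the direction of the gene. Capitals mark GGAAG or its reverse complement CTTCC, the core bound by ETS factors, a family that includes regulators of endothelial genes.
Kdr promoter: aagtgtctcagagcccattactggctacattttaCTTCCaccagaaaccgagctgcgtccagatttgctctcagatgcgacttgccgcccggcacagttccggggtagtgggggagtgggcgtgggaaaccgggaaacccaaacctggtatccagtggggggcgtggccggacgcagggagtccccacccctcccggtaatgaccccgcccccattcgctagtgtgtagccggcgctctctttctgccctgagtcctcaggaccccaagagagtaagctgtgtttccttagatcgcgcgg
Flt1 promoter: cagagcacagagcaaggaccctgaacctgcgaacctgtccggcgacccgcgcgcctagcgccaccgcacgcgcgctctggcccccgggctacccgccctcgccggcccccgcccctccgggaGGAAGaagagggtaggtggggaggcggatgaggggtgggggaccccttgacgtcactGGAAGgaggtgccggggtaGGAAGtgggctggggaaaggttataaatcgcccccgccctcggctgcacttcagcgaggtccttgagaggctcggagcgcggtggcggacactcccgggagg

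The Kdr window, chr5:75978406-75978705 on the minus strand, held 1 match, and the Flt1 window, chr5:147725962-147726261 on the minus strand, held 3. The Tek window held 0 matches to GGAAG or CTTCC, and shorter forms of the core were not searched for. The Flt4 window held 1 and the Vegfb and Vegfc windows 0. The Nrp1 window held 4, although Nrp1 was at its lowest in wild-type replicate 1, where Kdr and Flt1 were high. The motif is common: 71.4% of 32851 promoter windows of this length hold it on either strand. ACGTG, a form of the core bound by hypoxia-inducible factors, was in 19.6% of windows and in neither the Kdr nor the Flt1 window, searched on both strands. The Vegfa window at chr17:46025114-46025413 held 1 match to ACGTG, and the Vegfa window at chr17:46032328-46032627 held 0. The same windows held 2 and 1 matches to GGAAG or CTTCC. The first of these windows lies inside the annotated gene, and the second covers its annotated start.

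The other genes of the pathway were taken from 6 lists with 65 tested genes, of which 0 passed an adjusted p of 0.05 in either direction (edgeR), as for all genes. Groups did not overlap with the knockout above for 12 of the 65 (18.5%, beside 8.95% of all genes) and with the knockout below for 2 (3.08%, beside 7.2%). The lists were chosen with earlier results of these data known, and nothing is called particular to them from these shares.

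Among the other ligands and receptors of both families, Nrp2, a co-receptor that binds VEGF-C and semaphorins, had the smallest p. It measured 38.7, 38.1 and 28.4 CPM in the wild type and 47.9, 79.0 and 84.7 CPM in the knockout, without overlap. The log2 fold change was 1.01 ± 0.23 (SE; edgeR unadjusted p = 0.00269, adjusted p = 0.627), and DESeq2 gave an adjusted p of 0.0489. Vegfd and Angpt4 overlapped, at 0.40 and 0.33, and all 5 tested genes of this list were above 0.

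Of the 10 genes that process the ligands or modify the receptors, 9 had a log2 fold change above 0, with a median of 0.37. Gpc1, a heparan sulfate proteoglycan that binds growth factors, measured 26.8, 28.3 and 26.0 CPM in the wild type and 36.1, 42.6 and 45.7 CPM in the knockout (log2 fold change 0.62 ± 0.14, edgeR adjusted p = 0.627). Svep1, an extracellular protein required for lymphatic vessel growth, and Plxnd1, a semaphorin receptor of vessels, stood at 0.81 and 0.32, both with overlap. Svep1 was at 0.54 without knockout replicate 2, and Plxnd1 at 0.17 without knockout replicate 3 and 0.48 without knockout replicate 1.

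The 22 intracellular transducers had a median of 0.16, with 17 above 0. Prkcb, a protein kinase C, and Src, a tyrosine kinase, stood at 0.48 and 0.27, and the groups did not overlap for either gene.

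The oxygen sensing genes, which control Vegfa transcription, had log2 fold changes above 0 for 8 of 8, with a median of 0.30. Vhl, which marks hypoxia-inducible factors for breakdown, measured 30.9, 33.2 and 30.5 CPM in the wild type and 40.0, 43.4 and 41.6 CPM in the knockout (0.40 ± 0.12, SE; edgeR adjusted p = 0.627). Egln2, an oxygen-dependent prolyl hydroxylase, and Hif1an, an asparaginyl hydroxylase that blunts the same factors, were at 0.52 and 0.36, also without overlap. The genes of the factors themselves, Epas1, Hif1a and Arnt, were at 0.44, 0.24 and 0.16, with overlap. Egln1 and Egln3 were at 0.03 and 0.21, also with overlap. A link between these genes and the Vegfa values was not tested.

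The hypoxia target genes were split, with 4 of 9 above 0 and a median of -0.04. The glucose transporter Slc2a1 lay on the same side as Vegfa, at 69.7, 76.4 and 84.7 CPM in the wild type and 65.7, 54.3 and 47.6 CPM in the knockout (-0.46 ± 0.16, SE; edgeR adjusted p = 0.627). The glycolytic enzyme Aldoa also did not overlap, at -0.39 (-0.24 without wild-type replicate 3), and Bnip3, a mitophagy receptor, was at -0.31 with overlap.

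The 11 genes that respond to VEGF, angiopoietin or flow signals in endothelium had a median of 0.52, with 7 above 0. Unc5b, a netrin receptor of vessels, measured 37.5, 46.3 and 42.5 CPM in the wild type and 63.2, 73.0 and 66.1 CPM in the knockout. Its log2 fold change was 0.68 ± 0.13 (SE; edgeR unadjusted p = 0.00096, adjusted p = 0.627; DESeq2 adjusted p = 0.0319). Unlike Flt1, Kdr, Flt4 and Tek, Unc5b was not low in knockout replicate 1 or high in wild-type replicate 1. Foxo1, a transcription factor that angiopoietin-1 signalling restrains, was at 0.52 without overlap, and thrombomodulin (Thbd) at 0.72 with overlap.

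**Figure D4:**
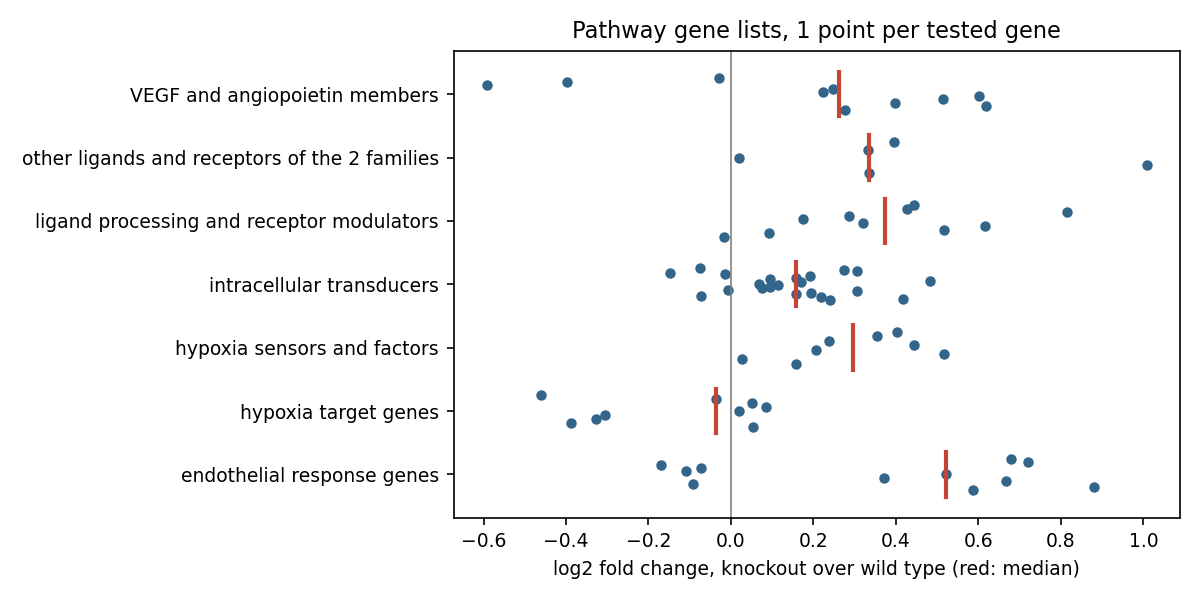
Log2 fold change, knockout over wild type (x axis), of each tested gene in the 10 genes and the 6 other pathway lists, with the list median in red. The medians run from -0.04 for hypoxia target genes to 0.52 for endothelial response genes, and none of the genes plotted passed the adjusted threshold with edgeR.

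The 3 genes of the 10 with the widest spread over the 6 libraries were Kdr, Flt4 and Angpt2, and for each the 3 closest patterns were sought among 12438 other genes with a mean of at least 5 CPM. Likeness was the root mean square difference of log2 CPM, centred per gene, over the 6 libraries. Closest to Kdr were Tnfrsf23 (0.056), B3gnt3 (0.072) and S1pr1 (0.076), the last a sphingosine 1-phosphate receptor of endothelium. Flt4 was closest to Mfap2, a microfibril gene, Tgfb3, a TGF-β ligand, and Olfml2b, at 0.093, 0.094 and 0.096. Angpt2 was closest to the transcription factor Snai1 (0.070) and the matricellular genes Sparc (0.086) and Thbs2 (0.095). The genes closest to Flt4 and Angpt2 thus included matrix genes. Likeness over 6 libraries that differ in depth and in cell type marker sums is a description with no test.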

How the data were processed

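Whole-kidney RNA was sequenced from 6 libraries, and the authors deposited raw counts per gene symbol, 1 column per library. The submitters' processing notes name the builds GRCm38 and mm10. Overlapping genes may share counts (aligner, counter, strand setting: not given in the sources used here). Titles gave the groups and replicate numbers, and the knockout columns were matched by the parts of their description.

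Genes were filtered with filterByExpr, scaled by TMM and compared with the quasi-likelihood test of edgeR 4.0.16 (robust fit, group as the only term) in R 4.3.3, on the whole table, with Benjamini-Hochberg adjustment and a threshold of 0.05. DESeq2 1.42.0 and limma 3.58.1 (voom) were alternatives, and log2 CPM used a prior count of 2. The pipeline was tested on simulated data. Lengths and 3' UTRs came from GENCODE M21. The members and lists were chosen with earlier results of these data known. Named genes were all members, up to 3 genes of smallest p with a mean of at least 1 CPM from each other pathway list, and for the 3 most variable members the 3 closest patterns. One gene named by this rule is not reported here. Marker genes were named by level, or as stated. Promoter motifs were chosen after the data were seen. RefSeq held promoters for 8 of the 10 genes.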

Additional observations from a re-analysis of the deposited data

How the results depend on the processing

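All 10 genes stayed above an adjusted p of 0.05 under every alternative run. Over all genes, 34 higher and 28 lower genes were called by DESeq2, 0 and 2 by limma-voom, 1 and 1 when nothing was filtered, 1 and 0 under the replicate block, and 0 to 1 higher with libraries left out, against 0 and 0 in the main analysis. Vegfa ranged from -0.76 to -0.42 and Vegfb from -0.50 to -0.23 over all alternatives. Signs turned for Vegfc without knockout replicate 1 (0.031), without knockout replicate 2 (0.015), without wild-type replicate 3 (0.019) and with the length trend removed (0.012). They turned for Tek, Vegfd and Angpt4 without knockout replicate 3 (-0.067, -0.070 and -0.18), and for Flt1, Kdr, Tek, Vegfd, Angpt4 and Bnip3 with replicate 3 of both groups left out (-0.027, -0.052, -0.19, -0.22, -0.33 and 0.14). Bnip3 also turned without wild-type replicate 3 (0.035). The log2 difference of the Angpt2 to Angpt1 ratio was 0.23 and turned without wild-type replicate 3 (-0.037) or knockout replicate 3 (-0.28), that of Flt1 to Kdr turned without knockout replicate 3 (0.028), and that of Tek to the marker sum without wild-type replicate 1 (-0.0065). With libraries left out the values ran from -0.14 to 0.031 for Vegfc, -0.027 to 0.65 for Flt1, -0.052 to 0.89 for Kdr, 0.011 to 0.83 for Flt4, 0.0016 to 0.91 for Angpt2, -0.19 to 0.52 for Tek, -0.22 to 0.699 for Vegfd, -0.33 to 0.64 for Angpt4 and -0.55 to 0.14 for Bnip3. The ratios ran from -0.28 to 0.57 (Angpt2 to Angpt1), -0.26 to 0.028 (Flt1 to Kdr), 0.20 to 0.43 (Kdr to markers), 0.0997 to 0.29 (Flt1 to markers) and -0.0065 to 0.072 (Tek to markers). The cause was not tested. The replicate numbers have no stated meaning. Deviations from the group mean correlated at -0.28, 0.18 and -0.29 for replicates 1, 2 and 3. These correlations cannot exclude a pairing, because the deviations of 3 libraries sum to 0 in each group. Only replicate 3 was left out of both groups at once. With the replicate block Vegfa was at -0.59, Kdr at 0.50 and Angpt2 at 0.51, and no member was called. With 3 libraries a group precision was limited, as in the 95% interval of Kdr, -0.31 to 1.51.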
